A study of Mus musculus with 8 samples.

Results

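The arms of miR-150 and miR-342 were examined in the callus of mice after femoral osteotomy. They were chosen by name, as every miR on the arrays called mmu-miR-150 or mmu-miR-342 with any arm, which gave 4 of the 1079 murine miRs. Of these, mmu-miR-150-5p, mmu-miR-342-3p and mmu-miR-342-5p were detected on all 8 arrays, and mmu-miR-150-3p was detected on none. Specimens P13 to P16 made up the Nonunion group (labelled Non-union) and specimens P17 to P20 the Union group, with 4 mice in each, and callus was taken 7 days after surgery. All were adult CD-1 mice, an outbred strain, and animals of both sexes were used, although the labels do not give the sex of single specimens. In the Nonunion group the osteotomy gap was 1.8 mm and the periosteum next to the gap was stripped, whereas in the Union group the gap was 0.25 mm. A pin in the marrow canal and a metallic clip held the femur in both groups. The groups are named after the outcome known for this model, and bridging of the gap had not taken place in any animal when the callus was taken. Total RNA was labelled with Cy3, and every specimen had its own array. The 8 arrays lay on 1 slide with each group in a row of its own, so that row and group cannot be told apart.

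MiRs are short RNAs that guide a silencing complex to mRNAs, mainly through pairing of the seed, which is the stretch from base 2 to base 8. MiR-150 is abundant in mature B and T lymphocytes and in natural killer cells. It drops when these cells are activated, and the mRNA of the transcription factor Myb is its best known target. MiR-342 is made from an intron of Evl, the gene of an actin regulator, and is found in lymphocytes as well as in cells of the myeloid line. Lymphocytes and myeloid cells both enter the callus in the inflammatory phase of bone healing. In RNA from whole tissue, fewer cells of one type and less RNA per cell cannot be told apart.

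RefSeq (GRCm38.p6) held a mature sequence for 3 of the 4 members, namely both arms of miR-342 and miR-150-3p, and miR-150-5p is given by name. The mature sequences are shown 5′ to 3′ with the seed in capitals, because the seed is the part that decides which family a miR belongs to.
miR-342-3p: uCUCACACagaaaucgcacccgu
miR-342-5p: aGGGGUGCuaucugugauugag
miR-150-3p: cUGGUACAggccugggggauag
The precursor of miR-342 is shown with both arms in capitals, because the arms are excised from this 1 hairpin and were measured by separate probes.
Mir342 hairpin: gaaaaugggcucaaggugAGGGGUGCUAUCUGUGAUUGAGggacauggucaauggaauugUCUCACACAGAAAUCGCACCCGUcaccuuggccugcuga
The hairpin has 99 bases and lies on the plus strand at chr12:108658620-108658718. The 5p arm takes its bases 19 to 40 and the 3p arm its bases 61 to 83. In the RefSeq annotation Mir342 lies within Evl. Mir150 lies within no other annotated gene of chromosome 7. The 3 seeds differ from each other. Of the 1079 murine miRs of the arrays, 840 matched a RefSeq mature sequence by name, and none of these shared a seed with miR-342-3p, miR-342-5p or miR-150-3p. The seed of miR-150-5p was not compared.

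Each member was measured by 40 spots per array. MiR-150-5p and miR-342-3p had 2 probes with 20 spots each, and miR-342-5p and miR-150-3p had 4 probes with 10 spots each. The scanner software gives the signal of each probe after background subtraction and adds the signals of the detected probes to 1 merged signal. For miR-342-3p both probes entered the merged signal on every array, and all 160 spots of each probe over the 8 arrays were well above background. For miR-150-5p only the brighter probe entered on 7 arrays, and both probes entered on P16. For miR-342-5p 1 of its 4 probes entered on every array. MiR-342-3p was thus measured with a wide margin, miR-150-5p with a small one, and miR-342-5p at the limit of detection. No spot of a member was saturated.

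MiR-150-5p was low in 7 of the 8 specimens and higher in 1. In the Nonunion group its merged signal was 15.05 units on P13, 10.7 on P14, 7.55 on P15 and 42.1 on P16. In the Union group it was 17.6 units on P17, 13.4 on P18, 7.56 on P19 and 12.4 on P20. P16 lay above all other arrays, the other Nonunion arrays lay within or next to the range of the Union arrays, and the groups overlapped. The signal of P16 was 2.39-fold that of the next array and 3.40-fold the median of the other 7 arrays, which varied by 2.34-fold among themselves. The error that the software gives for the merged signal was between 9.74% and 20.5% of the signal on single arrays. It covers the measurement on 1 array and not the variation between animals.

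**Figure D1:**
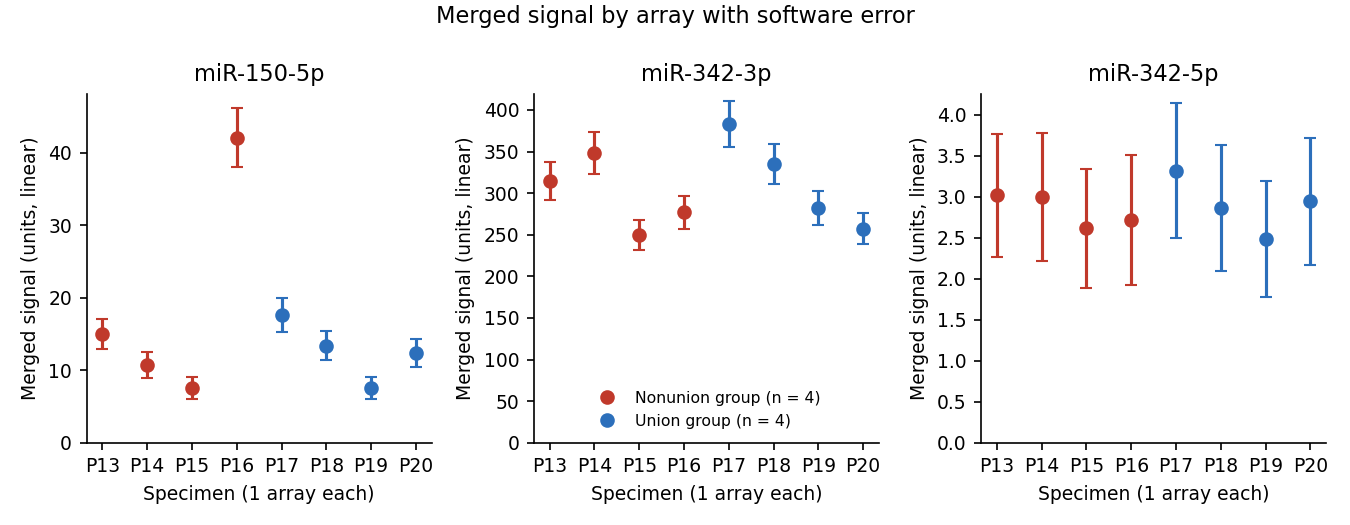
Merged signal in units on a linear axis (y) of the 3 detected members on each array (x), with the error given by the scanner software as bars, for the Nonunion group in red and the Union group in blue. P16 reached 42.1 units for miR-150-5p against at most 17.6 on the other arrays, whereas miR-342-3p lay between 250 and 383 units and miR-342-5p between 2.48 and 3.32 units in both groups.

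The high signal on P16 was seen with both probes of miR-150-5p. The brighter probe (A_54_P1097) had a probe signal of 34.2 units on P16 and between 7.55 and 17.6 units on the other arrays, which is 1.94-fold the next array. The weaker probe (A_54_P1096) had 7.90 units on P16 and between 0.723 and 4.03 units elsewhere, where none of its spots was well above background, so that no fold is given. P16 was also the only array on which spots of the weaker probe were well above background, with 12 of 20 spots. Part of the merged signal of P16 therefore came from a probe that was not counted on the other arrays, and the brighter probe alone was also highest on P16. Over the 8 arrays, 149 of the 160 spots of the brighter probe were well above background, with the fewest (13 of 20) on P19 of the Union group.

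**Figure D2:**
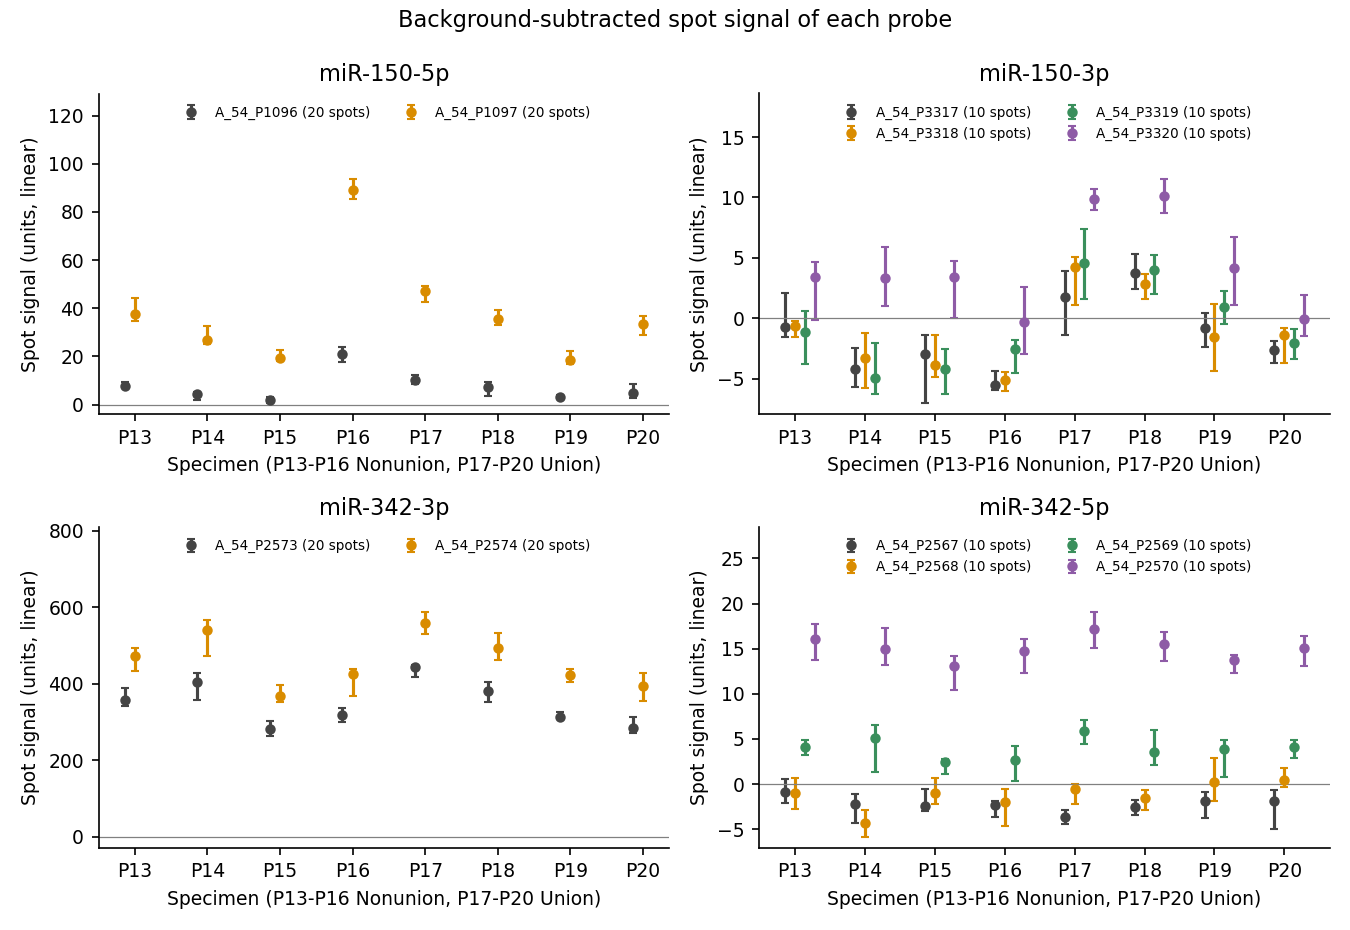
Background-subtracted signal in units on a linear axis (y) of each probe of the 4 members on each array (x), as the median over its spots with the quartiles as bars. Both probes of miR-150-5p were highest on P16, both probes of miR-342-3p followed each other closely, miR-342-5p rested on 1 probe, and the probes of miR-150-3p scattered around 0 except on P17 and P18.

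For the comparison of the groups, the merged signals of the 310 miRs detected on all arrays were log2 transformed and quantile normalized. The normalized log2 signal of miR-150-5p was 3.67, 3.21, 2.85 and 5.78 on P13 to P16 and 3.86, 3.86, 2.93 and 3.86 on P17 to P20. P17, P18 and P20 share a value because miR-150-5p had the same position among the 310 miRs on these arrays, which was 46 from the lowest. Nonunion arrays averaged 3.88 ± 1.31 (SD, n = 4) and Union arrays 3.63 ± 0.47 (SD, n = 4). The log2 difference, Nonunion minus Union, was 0.25 (SE 0.57, 95% interval -1.03 to 1.52, limma adjusted p = 0.787; permutation test, exact and two-sided, p = 0.857). The smallest p this permutation test can give with 4 arrays against 4 is 0.0286. The difference was within the spread between arrays, and P16 decided its sign, since it was -0.25 without that array. A fold change (FC) of 2 in either direction lies within the interval, so that a change of this size was not detectable here.

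MiR-342-3p had nearly the same signal in all specimens. Its merged signal was 314.7 units on P13, 348 on P14, 249.8 on P15 and 276.8 on P16 of the Nonunion group. It was 383 units on P17, 334.6 on P18, 282.5 on P19 and 257 on P20 of the Union group. The highest array exceeded the lowest by 1.53-fold, the groups overlapped fully, and the software error was between 7.16% and 7.23% of the signal. Without normalization the highest signal was on P17, which also had the highest summed signal of all murine miRs.

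After normalization miR-342-3p lay between 8.01 (P20) and 8.55 (P16) on the log2 scale. Nonunion arrays averaged 8.33 ± 0.19 (SD, n = 4) and Union arrays 8.16 ± 0.10 (SD, n = 4). Of the 310 miRs, 4.84% had a smaller SD over the 8 arrays than miR-342-3p (SD 0.17, n = 8), whose range was 0.54 against a median range of 1.21 over all of them. For miR-150-5p 94.8% of the miRs had a smaller SD, with P16 at 5.78 and the other arrays between 2.85 and 3.86. The log2 difference of miR-342-3p was 0.17 (SE 0.17, 95% interval -0.22 to 0.56, limma adjusted p = 0.539; permutation test, exact and two-sided, p = 0.200), and it turned to -0.08 without normalization. The median difference over all 310 miRs was 0.03, and it was -0.10 without normalization and 0.15 with quantiles over all murine miRs. From the first to the second of these, miR-342-3p differed relative to that median by 0.14 and 0.03. An FC of 2 in either direction lies outside the interval. Without P15 of the Nonunion group, the remaining Nonunion arrays of miR-342-3p were all higher than its Union arrays, with a difference of 0.24 (limma adjusted p = 0.641; permutation test, exact and two-sided, p = 0.0286, the smallest p with 3 arrays against 4). With P15 left out, 14 of 311 miRs did not overlap.

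MiR-342-5p, the other arm of the hairpin, lay close to the detection limit on every array. Its merged signal was 3.02 units on P13, 3.00 on P14, 2.62 on P15 and 2.72 on P16. It was 3.32 units on P17, 2.87 on P18, 2.48 on P19 and 2.95 on P20. The software error was between 24.7% and 29.1% of the signal, the arrays differed by at most 1.34-fold, and the groups overlapped. On P15 and P19 it had the lowest signal of the 310 miRs, and on no array was it above position 8 from the lowest.

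All of the merged signal of miR-342-5p came from probe A_54_P2570, with between 2.48 and 3.32 units. Of the other probes, A_54_P2569 had between 0.398 and 1.09 units, A_54_P2568 between -0.828 and 0.151 and A_54_P2567 between -0.644 and -0.103. Every spot of the counted probe was called positive and significant on every array, but only 10 of its 80 spots were well above background, and none of them on P16. The 4 probes of this arm thus disagree on whether there is a signal at all.

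After normalization miR-342-5p was 1.49 on P13, 1.66 on P14, 1.34 on P15 and 1.59 on P16 on the log2 scale, and 1.66 on P17, 1.89 on P18, 1.34 on P19 and 1.45 on P20. Nonunion arrays averaged 1.52 ± 0.14 (SD, n = 4) and Union arrays 1.59 ± 0.24 (SD, n = 4). The log2 difference was -0.07 (SE 0.19, 95% interval -0.49 to 0.36, limma adjusted p = 0.832; permutation test, exact and two-sided, p = 0.743). Its sign depended on the scaling. When the quantiles were taken over all murine miRs, of which the undetected ones share 1 floor value, the difference was 2.07 (limma adjusted p = 0.313; permutation test, exact and two-sided, p = 0.0571). With that scaling the normalized signal was -2.09 on P17 and -2.08 on P18, which had the most detected miRs (391 and 381), and 2.71 on P16, which had the fewest (324). The merged signals of the same arrays were 3.32, 2.87 and 2.72 units.

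**Figure D3:**
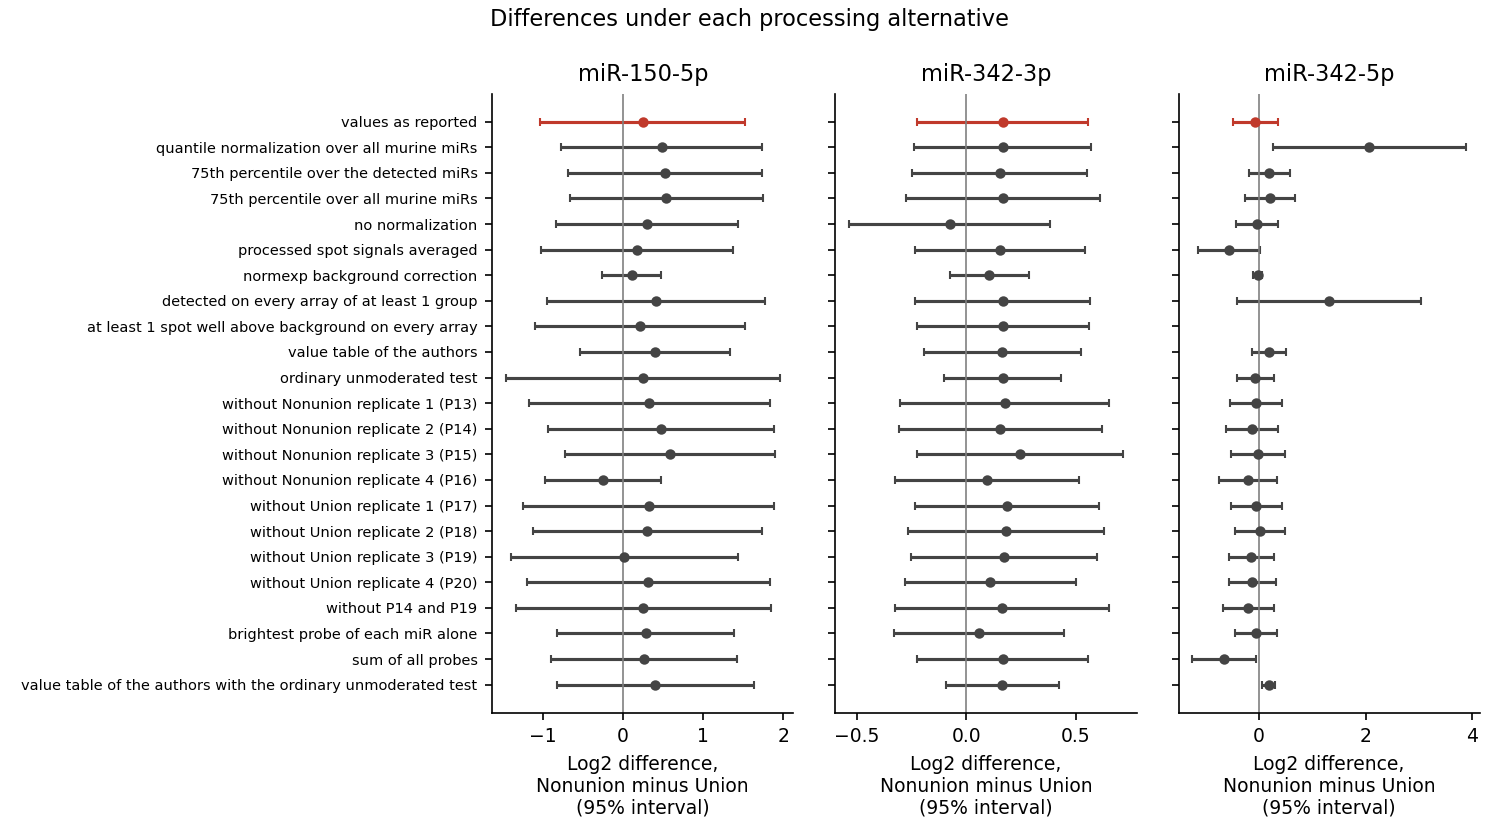
Log2 difference, Nonunion minus Union, with its 95% interval (x) for each detected member under each way of processing (y), with the values of the text in red and the alternatives in grey. MiR-150-5p lay below 0 without P16 (-0.25), miR-342-3p lay below 0 without normalization (-0.08), and miR-342-5p ranged from -0.65 with the sum of all probes to 2.07 with quantiles over all murine miRs.

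The deposited table was compared as well. Among the normalized values deposited by the authors the difference was 0.19 and every Nonunion array (3.16 to 3.35) lay above every Union array (3.00 to 3.08; limma adjusted p = 0.401; permutation test, exact and two-sided, p = 0.0286, the smallest the test allows). No direction is given for this arm.

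MiR-150-3p, the partner arm of miR-150-5p, was detected on no array, and none of its spots was well above background. Probe A_54_P3320 came closest, with a probe signal of 1.89 units on P17 and 1.83 on P18 of the Union group and between -0.0820 and 0.761 units on the other arrays. On P17 and P18 9 and 10 of its 10 spots were called positive and significant, against at most 6 on any other array. The other probes were also highest on P17 or P18, with at most 0.707 units. These arrays had the lowest median signal of the negative control spots (3.52 and 3.83 units, against 4.14 to 5.31 on the other arrays) and the most detected miRs, and the part of this in the probe signals was not tested. On P16, where miR-150-5p was highest, no probe of miR-150-3p had a signal above 0.

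None of the 3 members tested had an adjusted limma p under 0.05, for which 0.645% of the 310 miRs passed, and none had an unadjusted limma p under 0.05, for which 12.3% passed. None reached an FC of 2 in either direction, for which 5.48% passed, and the groups overlapped for each of them, whereas 4.19% of the miRs did not overlap. On the same values the ordinary test without moderation called none of the 3 either. The unadjusted call of miR-342-5p depended on the processing. It had an unadjusted limma p under 0.05 with quantiles over all murine miRs (2.07, higher in the Nonunion group) and with the sum of all probes (-0.65, lower). In the table of the authors it passed by the ordinary test (0.19, higher) but not by limma. Of the 310 miRs, 43, 37 and 38 passed in these 3 settings. Of the 38 miRs with an unadjusted limma p under 0.05 as normalized here, 21 were higher and 17 lower in the Nonunion group. This split was 19 to 16 without normalization, 23 to 17 with averaged spot signals and 23 to 15 with normexp background correction. It was 28 to 26 when detection in either group sufficed. The split was 30 to 13 with quantiles over all murine miRs and 27 to 13 in the table of the authors. With scaling by the 75th percentile over the detected or all murine miRs it was 32 to 11 and 33 to 9. The members had no adjusted call under any of the alternatives.

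The arms of miR-342 come from the same hairpin, so that their ratio was compared between the groups. The level of one probe set cannot be read against that of another, and only the change is given. After quantile normalization over the detected miRs, the log2 ratio of the 3p to the 5p arm was higher in the Nonunion group by 0.23. This did not pass 0.05 (exact permutation test, two-sided, p = 0.114). Relative to the mean of all arrays the ratio lay between 0.02 and 0.27 on the Nonunion arrays and between -0.37 and 0.14 on the Union arrays, and the groups overlapped through P19 (0.14). In the signals without normalization the ratio was not higher, with a change of -0.05 (exact permutation p = 0.686). Scaling by the 75th percentile shifts both arms of an array alike, so that it gives this same value by construction. The change turned to -1.91 with quantiles over all murine miRs, to -1.15 when detection in either group sufficed and to -0.02 in the table of the authors. It was larger than 0.23 in the same direction with averaged spot signals (0.70, exact permutation p = 0.0857) and with the sum of all probes (0.81, exact permutation p = 0.0571).

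**Figure D4:**
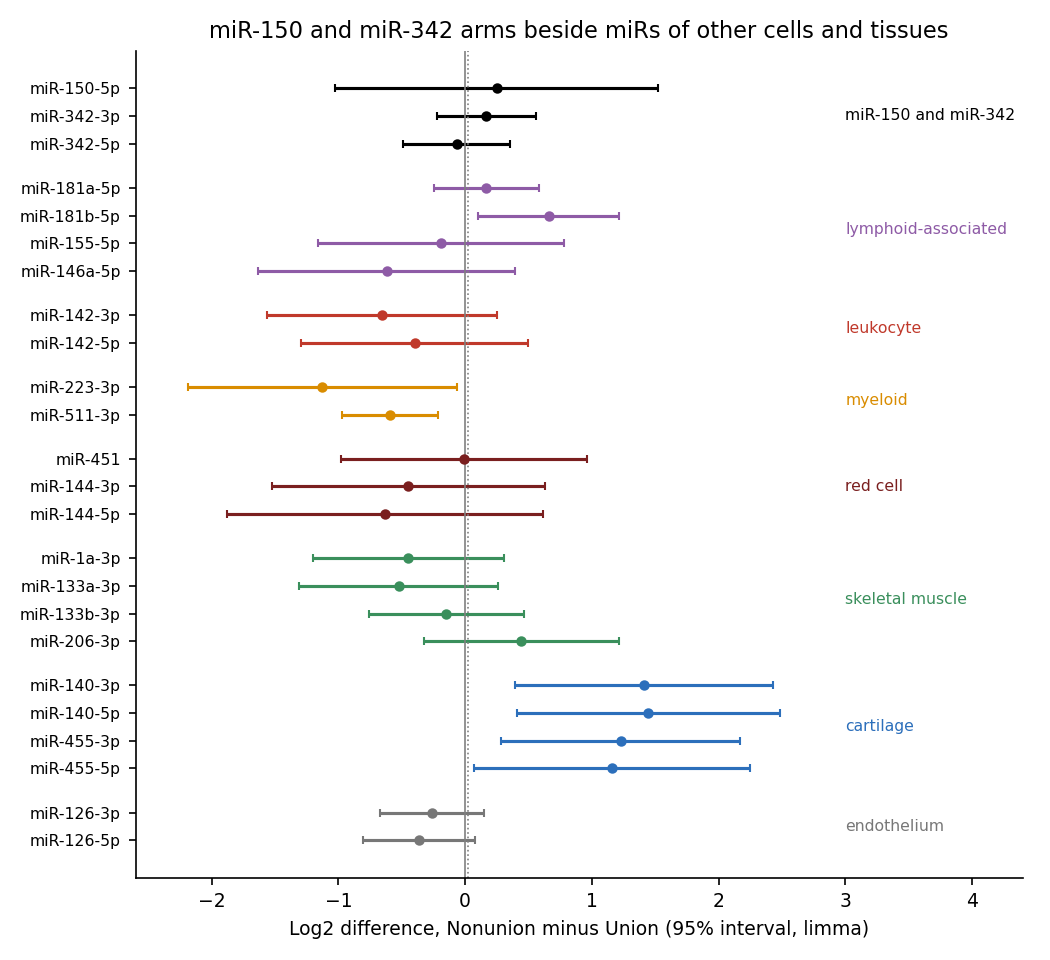
Log2 difference, Nonunion minus Union, with its 95% interval from limma (x) for the 3 detected members and the detected miRs of other cells and tissues (y). The solid line marks 0 and the dotted line the median of all 310 miRs (0.03); the intervals of the members include 0, whereas those of miR-181b-5p (0.66), of the 4 cartilage miRs (1.16 to 1.45) and of the 2 myeloid miRs (-1.13 and -0.59) do not.

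Other miRs of blood cells and of the tissues in the callus were set beside the members. Of 4 further miRs associated with lymphocytes, 1 had an unadjusted limma p under 0.05 (12.3% of the 310 miRs) and none an adjusted one. This was miR-181b-5p, which acts in lymphocyte development, which differed by 0.66 on the log2 scale (SE 0.25; adjusted p of limma 0.354). MiR-181a-5p of the same family differed by 0.17 (SE 0.18), miR-155-5p, which is induced in activated lymphocytes and macrophages, by -0.19 (SE 0.43), and miR-146a-5p, a brake on inflammatory signaling, by -0.62 (SE 0.45). The median of these 4 was -0.01 against 0.03 over all miRs tested.

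Of the 4 myeloid miRs 2 were detected on all arrays. MiR-223-3p, which is abundant in neutrophils, and miR-511-3p, from the gene of a macrophage receptor, were lower in the Nonunion group by log2 differences of -1.13 (SE 0.47, limma adjusted p = 0.359) and -0.59 (SE 0.17, limma adjusted p = 0.290), and the groups did not overlap for either. Both had an unadjusted limma p under 0.05. Of the 310 miRs, 12.3% had such a p and 4.19% did not overlap. MiR-223-5p and miR-511-5p were detected on no array. MiR-142-3p and miR-142-5p, which all leukocytes carry, differed by -0.65 (SE 0.41) and -0.40 (SE 0.40). Both of these and miR-223-3p were highest on P20 of the Union group, which enters their differences. The 3 miRs of the red cell list found by name on the array, miR-451, miR-144-3p and miR-144-5p, had a median difference of -0.45. None of them passed an unadjusted p under 0.05. The miRs of cartilage, both arms of miR-140 and of miR-455, all had an unadjusted limma p under 0.05 with differences between 1.16 and 1.45, and none an adjusted one. The groups overlapped for each of these cartilage miRs, with an exact permutation p between 0.0571 and 0.114. Of 6 miRs of skeletal muscle 4 were detected on all arrays, with a median difference of -0.30, and none passed. The endothelial arms of miR-126 differed by -0.26 and -0.36, and neither passed.

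P20 of the Union group was highest in 5 of the 8 tested miRs of the lymphoid-associated, leukocyte and myeloid lists, whereas the members were close to the other arrays there. The endothelial arms of miR-126 were highest on P20 as well. How many of all tested miRs were highest on P20 was not counted, so that this is not shown to be particular to leukocyte miRs. On P20 the normalized log2 signal of miR-223-3p was 13.83 against 10.75 to 12.05 on the other arrays, that of miR-146a-5p was 8.64 against 6.26 to 6.65, and that of miR-155-5p was 6.89 against 4.81 to 6.04. MiR-142-3p was 12.77 on P20 against 10.48 to 10.98 elsewhere, and miR-142-5p was 9.39 against 7.27 to 8.15. The other miRs of these lists did not share this, since miR-511-3p was 6.98 on P20 against 6.29 to 7.09 elsewhere, and miR-181b-5p was 5.19, which is below the median of the other arrays (5.73). On the same array miR-150-5p was 3.86, which is 0.20 above the median of the other arrays, and miR-342-3p was 8.01, the lowest of the 8. MiR-181a-5p was also near the other arrays on P20, with 5.86 against a median of 5.89. Without P20 the log2 difference of miR-150-5p was 0.32 and that of miR-342-3p was 0.11. The differences of the 5 miRs highest on P20 are given only with that array, so that its part in them is not shown.

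**Figure D5:**
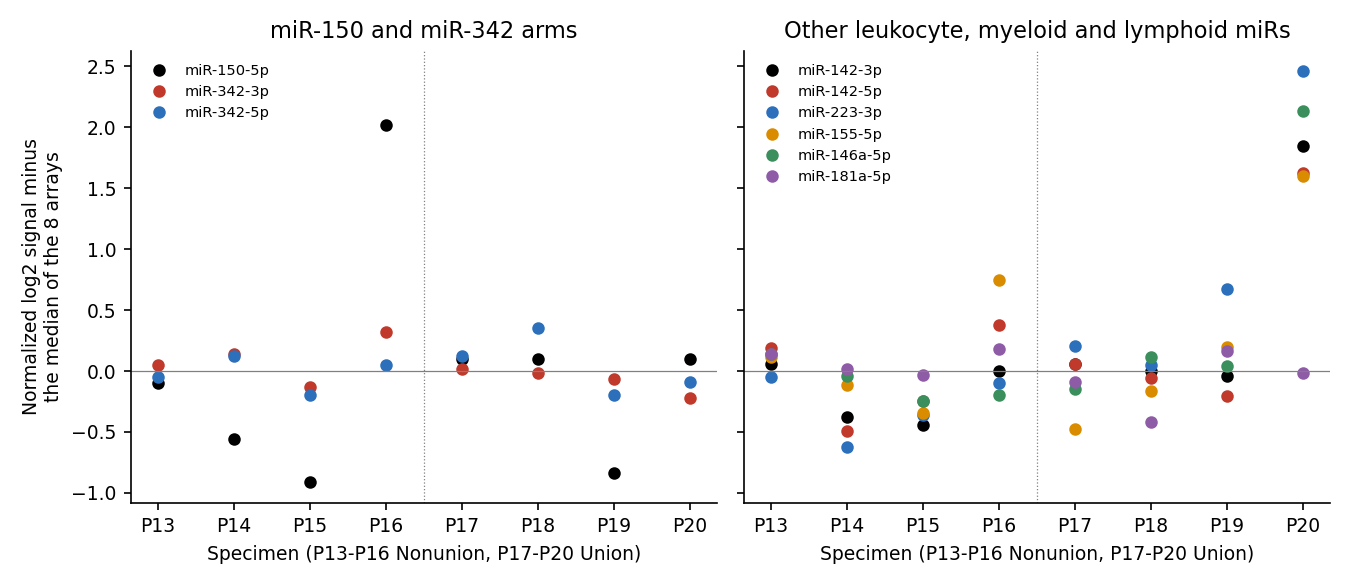
Normalized log2 signal minus the median of the 8 arrays (y) on each array (x), for the detected members at the left and for a selection of other miRs of leukocytes at the right. The selection leaves out miR-181b-5p and miR-511-3p, which were not highest on P20. On P16 miR-150-5p stood at 2.12 above the median of the other arrays, and on P20 miR-223-3p stood at 2.51 and miR-142-3p at 1.85 above it, while miR-150-5p, miR-342-3p and miR-342-5p differed from it on P20 by 0.20, -0.24 and -0.14. These values are relative to the median of the other arrays, and not to that of all 8 arrays used for the axis.

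P16 of the Nonunion group, where miR-150-5p was highest, differed from the other arrays in other tissues as well. The normalized log2 signal of miR-150-5p was 5.78 on P16 against 2.85 to 3.86 on the other arrays, which is 2.12 above their median. The mean over the 4 cartilage miRs was highest on P16 (8.68 against 5.77 to 7.74), and the mean over the 4 muscle miRs was lowest (12.33 against 13.10 to 13.61). The mean of the leukocyte miR-142 arms on P16 was 9.53, within the range of the other arrays (8.91 to 11.08), and the mean of the myeloid miRs was 8.82 (8.59 to 10.41). The mean of the lymphoid-associated miRs on P16 was 6.21, below only P20 (5.54 to 6.64 on the other arrays). Of these, miR-181a-5p and miR-181b-5p were highest on P16, by 0.20 and 0.88 over the median of the other arrays, and miR-155-5p was second to P20 and 0.87 over it, whereas miR-146a-5p differed from it by -0.23. MiR-342-3p was also highest on P16, but by 0.34 over the median of the other arrays. P16 had the fewest detected miRs and the lowest summed signal. The part of tissue makeup or array quality in the value of miR-150-5p on P16 was not tested.

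The miRs with the most similar profile over the 8 arrays were sought by the root mean square (RMS) difference of the mean-centred normalized log2 signals. For miR-342-3p these were miR-151-5p, miR-3968, miR-320-3p, miR-3069-3p and miR-28c, with RMS differences between 0.14 and 0.17. The RMS deviation of miR-342-3p from its own mean was 0.16, so that these are miRs that varied as little. For miR-150-5p they were miR-720, miR-5109, miR-148a-3p, miR-5100 and miR-712-5p, with RMS differences between 0.70 and 0.77 against an own deviation of 0.86. MiR-342-3p was at position 6 of 309 for miR-150-5p, with an RMS difference of 0.77. For miR-342-5p they were miR-1906, miR-1198-5p, miR-342-3p, miR-5109 and miR-5126, with RMS differences between 0.17 and 0.19 against an own deviation of 0.18. The partner arm miR-342-3p was thus at position 3 of 309, with an RMS difference of 0.18. This is no smaller than the own deviation of miR-342-5p. The position therefore shows that both arms varied little, and not that they moved together. When seen from miR-342-3p, miR-150-5p was at position 279 of 309. The RMS difference carries the size of the variation of both miRs, and 8 arrays of 2 groups are few for such a ranking.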

How the data were processed

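Callus RNA of 8 mice was measured on 8 one-colour arrays. The authors extracted the scans with Agilent Feature Extraction 10.10.1.1 (array design annotated to mm9) and deposited intensity values per spot, probe and miR on a linear scale, with flags. They also deposited a table of normalized log2 values. For the values given here, the log2 of the merged signal was taken for the 310 miRs detected on all arrays and quantile normalized over them. The methods of the study do not state over which miRs the quantiles were taken. Taken over all murine miRs, the floor of undetected miRs enters the values of dim ones, and that scaling served as an alternative. Groups were compared with limma 3.58.1 (R 4.3.3; lmFit, eBayes, two-sided, Benjamini-Hochberg over the 310 miRs) and with an exact permutation test over 70 arrangements. Python 3.11.15 read the files. The fit was tested on simulated data.

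The members and the lists were chosen with earlier results of these data known. Named were the members, the lists of cell and tissue miRs, miRs sharing a seed, and the 5 miRs with the most similar profile. Names were matched as written, and the names miR-451a and miR-486-5p of the red cell list are not on the array. MiR-451 is on the array under that name, and miR-486 under another name was not sought. Alternatives were other scalings, spot averages, normexp (offset 50), filters, the table of the authors, another test, arrays left out, and, chosen after seeing the data, the brightest probe alone, the sum of all probes, and the table of the authors with an ordinary test without moderation. A replicate block was not fitted, because specimen numbers are not shared. Arrays have no read depth, so that precision is limited by how many there are. The labels do not say more than that the specimens are separate, and the study describes them as separate animals.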

Additional observations from a re-analysis of the deposited data

Results flagged for a closer look

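Within each group of 4 arrays, the gap between an extreme array and its neighbour was divided by the range of the group (Dixon's ratio). Over 50 groups, from the detected members, the arm ratio of miR-342 and the cell and tissue miRs, 5 exceeded the critical value for 4 arrays, where chance flags about 1 in 20, or 2.5 of 50. For miR-150-5p, P19 (2.93) lay below the other Union arrays, which share the value 3.86, so that any departure from it gives the highest possible ratio. Its merged signal on P19 was 7.56 units against 12.4 to 17.6 on the other Union arrays. P20 lay above the other Union arrays for 3 miRs. It had 8.64 for miR-146a-5p, where the others had 6.36 to 6.63. It had 12.77 for miR-142-3p, where they had 10.88 to 10.98, and 9.39 for miR-142-5p, where they had 7.56 to 7.82. P16 lay below the other Nonunion arrays for the muscle miR-133b-3p (12.91), where the others share the value 13.83. The value of miR-150-5p on P16 did not exceed the critical value, because the other Nonunion arrays also differ from each other.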

How the results depend on the processing

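Among the 22 alternatives, the log2 difference of miR-150-5p kept its sign in 21, all of which keep P16. The alternatives with the ordinary test reuse the values of another setting, so that their differences are the same by construction. With 1 array left out the log2 difference of miR-150-5p ranged from -0.25 (without P16) to 0.59. That of miR-342-3p turned only without normalization (-0.075), and it ranged from 0.09 to 0.24 with 1 array left out. For both, no alternative gave an unadjusted limma p under 0.05. For miR-342-5p, 21 alternatives gave a value and 7 reversed the sign, with the table of the authors counted under both tests. The difference was 2.07 with quantiles over all murine miRs, with an unadjusted limma p under 0.05, 0.20 and 0.21 with the 75th percentile over the detected or all murine miRs, 1.31 when detection in all arrays of either group sufficed, and 0.19 in the table of the authors, which passed an unadjusted 0.05 by the ordinary test and not by limma. It ranged from -0.20 to 0.020 (without P18) with 1 array left out. With the sum of all probes it was -0.65 with an unadjusted limma p under 0.05. The filter on spots well above background left miR-342-5p out. The change of the miR-342 arm ratio was -1.91 with quantiles over all murine miRs, -0.048 without normalization and, by construction, with either 75th percentile, -1.15 when detection in either group sufficed and -0.023 in the table of the authors. It was 0.70 with averaged spot signals and 0.81 with the sum of all probes. It ranged from 0.16 to 0.31 with 1 array left out, and passed 0.05 only without P19 (exact permutation p = 0.0286). The 38 miRs with an unadjusted limma p under 0.05 became 15 without P15, 22 without P17, 20 without P18, 112 without P19 and 123 without P14 and P19. Where not evident from the alternative itself, the cause was not tested. No paired analysis was possible because the groups share no specimen numbers. MiR-342-5p and miR-150-3p are limited by their signal over background.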
